A study of Drosophila melanogaster with 32 samples.

Results

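Glycine N-methyltransferase (Gnmt) and 7 further enzymes of one-carbon and S-adenosylmethionine (SAM) metabolism, Sardh, Sam-S, Ahcy, Cbs, Shmt, pug and Nmdmc, were followed over age and Smurfness in flies. These 8 genes, of 17737 in the count table, were taken by their gene identifiers. Gnmt was chosen by its measured counts, for a strong increase with age in non-Smurfs, so its age effect in non-Smurfs and its differences between Smurfs and non-Smurfs are given as a description with no test. The others were chosen as enzymes of the same metabolism.

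SAM is the methyl donor of most methyltransferases. It is made from methionine by SAM synthetase (Sam-S), becomes S-adenosylhomocysteine once its methyl group is used, and is cleared by adenosylhomocysteinase (Ahcy) to homocysteine. Cystathionine beta-synthase (Cbs) sends homocysteine towards cysteine and glutathione. Gnmt moves the methyl group of SAM onto glycine and so makes sarcosine, and sarcosine dehydrogenase (Sardh) turns sarcosine back into glycine. The folate enzymes carry one-carbon units: serine hydroxymethyltransferase (Shmt) takes them from serine, and pug and Nmdmc, dehydrogenases and cyclohydrolases of methylenetetrahydrofolate, interconvert their forms. In flies Gnmt is known as an enzyme of the fat body, where it limits the level of SAM.

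Smurfs are flies in which a blue food dye (FD&C #1) has passed through the gut wall and coloured the whole body, and non-Smurfs are flies of the same age that ate the dye and kept it in the gut. RNA-Seq counts were analysed for 32 samples of Drs-GFP flies, a line whose reporter is driven by the promoter of the antimicrobial peptide gene Drosomycin, each sample being a pool of 8 whole mated females that had all been on the dye. There were 4 Smurf samples at 20 days, 6 at 30 days and 6 at 40 days, and the same numbers of non-Smurf samples. Samples were collected in rounds labelled 1 day (18 samples), 5 hours (8 samples) or mixed (6 samples, 1 in each group). The 5-hour round exists at 30 and 40 days only. In Smurfs the label is the time since the transition, an upper bound because the paper removed remaining Smurfs at earlier collections. For mixed Smurfs that time is unknown. Non-Smurfs had made no transition, and their label names the collection round alone. Both 30-day mixed samples, Smurf M-10 and non-Smurf M-7, carry an age of 32 days in their labels. All samples came from a single cohort, and replicates are separate pools, so p-values measure the spread between pools of that cohort. Total counts ranged from 12164198 to 22798065 per sample. Levels are given as CPM, counts scaled to the library size after TMM normalisation, and comparisons between genes as CPM per kilobase of exon.

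In whole flies, fewer cells of a type and less RNA per cell cannot be told apart. The 8 fat body markers were apolpp, apoLTP, Mtp, Lsp2, FASN1 and the yolk protein genes Yp1, Yp2 and Yp3. How much each contributed to their sum was not examined. The summed level of these markers had a median of 5933 CPM in 20-day Smurfs and 24312 CPM in 20-day non-Smurfs, 5017 and 16649 CPM at 30 days, and 14567 and 16534 CPM at 40 days. Its range was 3427 to 7124 CPM in 20-day Smurfs and 18382 to 28284 CPM in 20-day non-Smurfs, and 4987 to 22635 CPM in 40-day Smurfs and 10838 to 30679 CPM in 40-day non-Smurfs. Over all ages 7 of these 8 markers were lower in Smurfs, as were 4 of 5 midgut, 3 of 5 haemocyte and 4 of 5 late eggshell markers, while 1 of 5 muscle markers was higher and none of the 5 germline markers was called. Of the markers of male tissue, all 4 were at the floor of 3 counts or fewer in every sample. In an earlier clustering of these data 3 of the 40-day Smurf libraries, 1d-p, 5h-c7 and 5h-c8, lay among non-Smurfs. Their fat body markers summed to 19615, 15387 and 22635 CPM, against 4987 CPM in 1d-q, 5597 CPM in 1d-r and 13747 CPM in M-16, the other 40-day Smurfs. The part of these markers in the results below was not tested, and results that rest on these libraries are given with and without them. The 3 libraries were set apart by their likeness to non-Smurfs in these same data. Differences between the states without them are therefore a description, and their adjusted p is not independent support.

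All 8 genes had reads in every sample, with a lowest count of 41 (Sardh) and a highest of 10745 (Sam-S), and all passed the filter on low counts in every comparison. Per kilobase, Sam-S and Ahcy had the highest levels over the 32 samples (129 ± 14.1 and 119 ± 11.5 CPM per kb, SD, n = 32) and Sardh the lowest (4.05 ± 2.92 CPM per kb). Gnmt, at 59.2 ± 46.0 CPM per kb, was near the middle on average and the most variable, with a coefficient of variation of 77.6% in CPM. That of Sardh was 72.0%, whereas those of Cbs, Ahcy and Sam-S were 7.89%, 9.69% and 10.9%.

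Gnmt (FBgn0038074, 3R from 12674608 to 12676084, plus strand, BDGP6.54) increased with age in both states, and at 20 and 30 days Smurfs had more of it than non-Smurfs. In 20-day Smurfs it was measured at 28.6, 28.5, 38.2 and 34.8 CPM, and in 20-day non-Smurfs at 6.53, 5.99, 14.5 and 4.86 CPM, so that every Smurf sample was above every non-Smurf sample. The share of all genes whose samples separate like this was not counted, here or for the other members below. At 30 days Smurfs ranged from 36.3 to 96.5 CPM (median 60.8) and non-Smurfs from 13.6 to 64.9 CPM (median 29.8). At 40 days the groups covered each other, with Smurfs between 42.1 and 223 CPM (median 95) and non-Smurfs between 55.9 and 118 CPM (median 78.8).

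**Figure D1:**
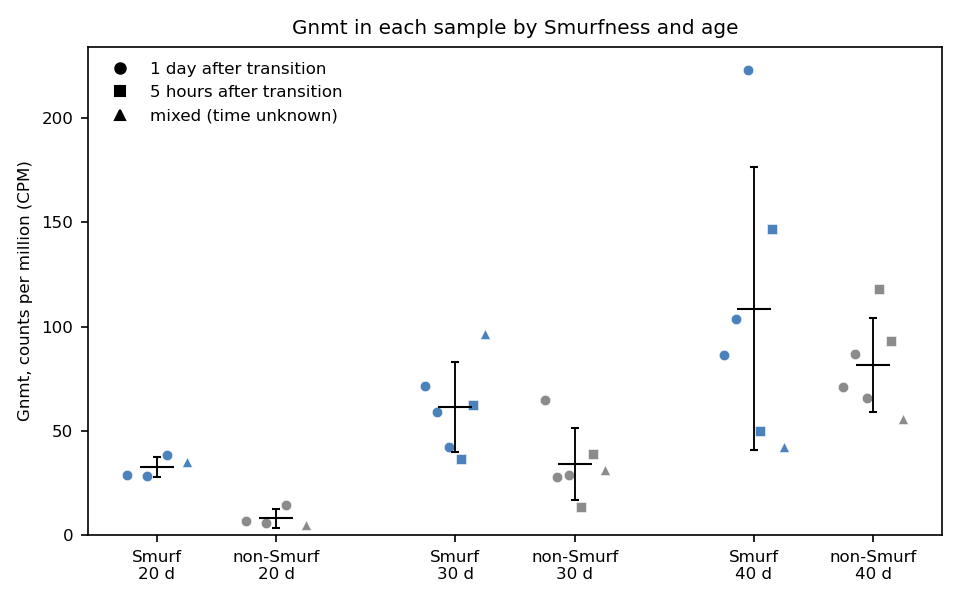
Gnmt in CPM (linear axis from 0) in each of the 32 samples, Smurfs in blue and non-Smurfs in grey. Symbols give the collection time, which for non-Smurfs is the collection round only, and black marks the mean ± SD of each group. The 4 non-Smurf samples at 20 days lie between 4.86 and 14.5 CPM, below every Smurf sample, and the 40-day Smurfs spread from 42.1 to 223 CPM.

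Ordered by group mean from the highest, Gnmt was at 109 ± 67.8 CPM in 40-day Smurfs (SD, n = 6), 81.7 ± 22.5 CPM in 40-day non-Smurfs (n = 6), 61.4 ± 21.6 CPM in 30-day Smurfs (n = 6), 34.1 ± 17.2 CPM in 30-day non-Smurfs (n = 6), 32.5 ± 4.79 CPM in 20-day Smurfs (n = 4) and 7.97 ± 4.42 CPM in 20-day non-Smurfs (n = 4). Except for the last step, between 20-day Smurfs and 20-day non-Smurfs, the samples of neighbouring groups in this order overlapped. Young Smurfs thus had Gnmt at the level of 30-day non-Smurfs, and 30-day Smurfs lay between 30-day and 40-day non-Smurfs.

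In non-Smurfs, which chose the gene, Gnmt was 10.2-fold higher at 40 than at 20 days (log2 fold change, log2FC = 3.35, SE 0.41), the third largest log2FC among 8508 genes whose mean log2 CPM was 2 or more. At 30 days the log2FC against 20 days was 2.09 (SE 0.39). Smurfs did not enter the choice of Gnmt and their age effect was tested. Gnmt rose 3.37-fold in Smurfs at 40 against 20 days (log2FC = 1.75, SE 0.41; edgeR quasi-likelihood test, Benjamini-Hochberg (BH) adjusted p = 0.0131), with 6 of 6 samples above the 20-day mean and no overlap between the ages. At 30 against 20 days the log2FC in Smurfs was 0.92 (SE 0.40, adjusted p = 0.761). With 1d-p, 5h-c7 and 5h-c8 left out, the increase at 40 days was 1.92 (adjusted p = 0.0385). Among 1-day samples alone it was 2.12 (SE 0.35, adjusted p = 0.0562), and when the 20-day Smurf 1d-d was left out the adjusted p was 0.0535. The difference in slope between the states, Smurfs minus non-Smurfs, was −1.61 (SE 0.57), a description since the non-Smurf side chose the gene.

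Against non-Smurfs of the same age, Gnmt in Smurfs had a log2FC of 2.03 (SE 0.31) at 20 days, 0.85 (SE 0.32) at 30 days and 0.42 (SE 0.36) at 40 days. Over all ages the log2FC was 0.65 (SE 0.38), and 14 of 16 Smurfs exceeded the mean of non-Smurfs. With age as a factor in the model it was 0.93 (SE 0.24), and with each collection event (age and time) as a block it was 0.90. Within the 8 collection events Gnmt was higher in Smurfs in 6 and lower in 2, both at 40 days, where the 5-hour difference was −0.29 and the mixed difference −0.41 in log2 CPM.

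Of the 7 members tested 3 differed between Smurfs and non-Smurfs over all ages at an adjusted p under 0.05, Nmdmc upwards and Ahcy and Cbs downwards, and of all genes tested 22.7% did (11.4% upwards and 11.3% downwards), so the share of the members is read against a background in which more than 1 gene in 5 was called. At 20 days 4 of the 7 members tested were called (background 19.1%, with 9.22% upwards and 9.87% downwards), Nmdmc upwards and pug, Shmt and Ahcy downwards. At 30 days Nmdmc alone was called (background 14.4%, with 8.43% upwards) and at 40 days none was (background 0%, with 650 genes, 6.45%, at an unadjusted p under 0.05, and 23 genes called by DESeq2). With age, 4 of 8 members rose in Smurfs at 40 against 20 days (Gnmt, Sardh, Sam-S and pug, background 17.6%, with 10.5% upwards) and 2 of the 7 tested rose in non-Smurfs (Sardh and Nmdmc, background 1.89%, with 1.57% upwards). No member was called at 30 against 20 days in Smurfs (background 0.00966%) or in non-Smurfs (background 0.00975%). With 1d-p, 5h-c7 and 5h-c8 left out, 6 members were called over all ages, Sam-S, Shmt and pug downwards in addition (background 2932 of 10094 genes). None was called at 40 days (background 2 of 10263 genes). Gnmt alone was called at 40 against 20 days in Smurfs (background 375 of 10375 genes). The interaction of Smurfness and age called none of the 7 tested (background 0.256%), so an age effect that was called in 1 state and not in the other was not shown to differ between them. The median log2FC of the 8 genes over all ages was −0.13 for Smurfs against non-Smurfs and −0.01 over all genes tested, and that of 40 against 20 days in Smurfs was 0.34, against 0.01 over all genes.

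**Figure D2:**
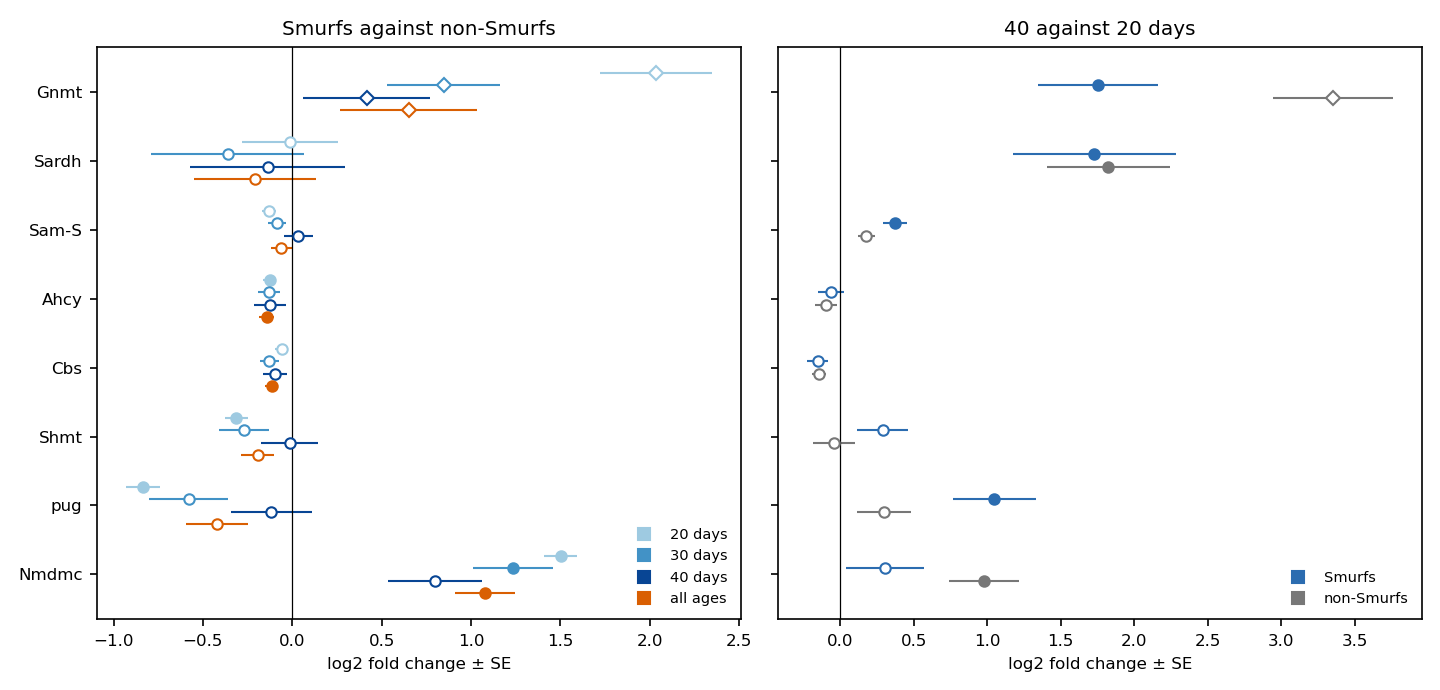
Fitted log2 fold change ± SE of each member for Smurfs against non-Smurfs at 20, 30 and 40 days and over all ages (left) and for 40 against 20 days in Smurfs and non-Smurfs (right). Filled symbols passed the test, open circles did not, and diamonds are values of Gnmt given without a test. Nmdmc lies to the right of 0 in all 4 comparisons on the left, pug moves from −0.83 at 20 days to −0.12 at 40 days, and Gnmt and Sardh have the largest values on the right.

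Sardh (FBgn0034276, 2R from 17753555 to 17756422, minus strand), which uses the sarcosine made by Gnmt, rose with age and showed no called difference between the states. In Smurfs it was at 5.85, 7.14, 3.36 and 3.64 CPM at 20 days, between 2.48 and 15.1 CPM at 30 days (median 7.90) and between 5.76 and 25.0 CPM at 40 days (median 17.5). In non-Smurfs it was at 4.74, 5.74, 6.09 and 3.86 CPM at 20 days, between 5.87 and 15.4 CPM at 30 days (median 9.58) and between 7.13 and 35.6 CPM at 40 days (median 13.1). In each state both of the highest samples were 40 days old, and in both states the mixed sample was the lowest of its 40-day group. The increase at 40 against 20 days was 3.31-fold in Smurfs (log2FC = 1.73, SE 0.55, edgeR adjusted p = 0.043) and 3.54-fold in non-Smurfs (log2FC = 1.82, SE 0.42, edgeR adjusted p = 0.0359). In Smurfs it was 1.36 (adjusted p = 0.216) with 1d-p, 5h-c7 and 5h-c8 left out. The call in Smurfs was lost in 8 of 16 fits that left out 1 sample (any of the 20-day samples, 1d-p, 1d-r, 5h-c7 or 5h-c8, adjusted p up to 0.111), and that in non-Smurfs in 7 of 16 (any of the 20-day samples, 1d-o, 5h-c5 or 5h-c6, adjusted p up to 0.112). Over all ages the difference of Smurfs from non-Smurfs was −0.21, with a 95% interval from −0.88 to 0.46.

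Sam-S (FBgn0005278, 2L from 106903 to 114432, plus strand), the enzyme that makes SAM, varied little. At 20 days it had 378, 406, 413 and 401 CPM in Smurfs and 455, 445, 425 and 447 CPM in non-Smurfs, with every Smurf below every non-Smurf (log2FC = −0.13, SE 0.04, adjusted p = 0.0521). This difference passed with RLE size factors (adjusted p = 0.0355), with DESeq2 (0.00523) and with no filter on low counts (0.0467). It did not pass with at least 10 counts in every sample, without the mixed samples, in the model of 6 groups or with collection time as a block. Of 8 fits that left out 1 sample, 1 passed (edgeR adjusted p from 0.0165 to 0.121). At 40 days Smurfs ranged from 452 to 606 CPM and non-Smurfs from 470 to 552 CPM. Sam-S rose in Smurfs at 40 against 20 days, by a log2FC of 0.37 (SE 0.083, edgeR adjusted p = 0.0107), and the corresponding log2FC in non-Smurfs was 0.18 (SE 0.057, adjusted p = 0.12). Without the 3 libraries named above the value in Smurfs was 0.29 (adjusted p = 0.0585).

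Ahcy (FBgn0014455, X from 15450261 to 15453167, plus strand) and Cbs (FBgn0031148, X from 21045138 to 21049096, plus strand) act after SAM has given its methyl group, and both were slightly lower in Smurfs. Ahcy had a mean of 241 ± 22.1 CPM in Smurfs and 263 ± 21.7 CPM in non-Smurfs (SD, n = 16 each), a log2FC of −0.14 (SE 0.044, edgeR adjusted p = 0.0162) with 15 of 16 Smurfs below the non-Smurf mean. At 20 days it was measured at 254, 253, 256 and 248 CPM in Smurfs and 269, 288, 271 and 290 CPM in non-Smurfs, again lower in every Smurf sample (log2FC = −0.13, SE 0.039, edgeR adjusted p = 0.049). That call was lost in 6 of 8 fits that left out 1 sample, namely any Smurf or the non-Smurfs M-1 or 1d-b (adjusted p up to 0.13). For Cbs the means were 103 ± 8.57 CPM in Smurfs and 111 ± 6.61 CPM in non-Smurfs (SD, n = 16 each), a log2FC of −0.12 (SE 0.036, edgeR adjusted p = 0.0182). The level in Smurfs was thus 0.905-fold that in non-Smurfs for Ahcy and 0.923-fold for Cbs, and neither difference passed without the mixed samples (adjusted p = 0.091 for Ahcy and 0.139 for Cbs) or with at least 10 counts in every sample as the filter (0.0516 and 0.0736). No age effect of either gene was called, with log2FC between −0.15 and −0.06 for 40 against 20 days in the 2 states. In the model of 6 groups over all samples that of Cbs in Smurfs passed (−0.17, edgeR adjusted p = 0.0361).

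Shmt (FBgn0029823, X from 5913067 to 5916797, minus strand) and pug (FBgn0020385, 3R from 10696534 to 10703316, plus strand), the folate enzymes that load and interconvert one-carbon units, fell in young Smurfs. In 20-day Smurfs pug was at 108, 128, 131 and 104 CPM, and in 20-day non-Smurfs at 233, 214, 220 and 185 CPM. Every Smurf sample was thus well below every non-Smurf sample, with a log2FC of −0.83 (SE 0.094, edgeR adjusted p = 0.0012). At 30 days pug ranged from 85.8 to 198 CPM in Smurfs (median 140) and from 135 to 245 CPM in non-Smurfs (median 218), with a log2FC of −0.58 (SE 0.22, adjusted p = 0.101). That difference passed with DESeq2 (adjusted p = 0.0482) and with collection time as a block (adjusted p = 0.0415). At 40 days the ranges were 136 to 375 CPM in Smurfs (median 225) and 177 to 363 CPM in non-Smurfs (median 244), with a log2FC of −0.12 (SE 0.23, adjusted p = 0.958).

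Some marker sums moved in the same direction as pug and others did not. At 20 days midgut markers summed to a median of 1185 CPM in Smurfs and 2218 CPM in non-Smurfs. At 40 days they were at 2234 and 2324 CPM, with a median log2FC per marker of −0.49. The fat body markers had the values given above. Haemocyte markers were at 119 and 188 CPM at 20 days and 85.5 and 129 CPM at 40 days. Late eggshell markers were at 82.2 and 939 CPM, then 79.8 and 362 CPM. Germline markers were at 2251 and 2226 CPM, then 2067 and 2130 CPM, and muscle markers at 1111 and 1040 CPM, then 1373 and 1281 CPM. The part of these markers in the differences of pug and Shmt was not tested.

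The level of pug in Smurfs rose with age, 2.07-fold at 40 against 20 days (log2FC = 1.05, SE 0.28, edgeR adjusted p = 0.0232), and in non-Smurfs the log2FC was 0.30 (SE 0.18, adjusted p = 0.43). The difference between these age effects was 0.74 (SE 0.34) with an adjusted p of 0.368. The 3 libraries that lay among non-Smurfs held 274 CPM of pug in 1d-p, 210 CPM in 5h-c7 and 375 CPM in 5h-c8, and without them the increase in Smurfs was 0.73 (adjusted p = 0.153). The call was also lost when 5h-c8 or either of the 20-day Smurfs 1d-d and M-4 was left out on its own (adjusted p up to 0.0786). With 1d-p, 5h-c7 and 5h-c8 all left out, pug was lower in Smurfs over all ages (log2FC = −0.67, SE 0.15, edgeR adjusted p = 0.00109), against −0.42 (SE 0.17, adjusted p = 0.0749) with them. Leaving out Smurfs picked for lying among non-Smurfs favours such a difference, so the adjusted p without them is not independent support. With all samples, the difference over all ages also passed with age as a factor (−0.48, adjusted p = 0.0104) and with a block for each collection event (−0.50, adjusted p = 0.00476).

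Shmt followed pug with smaller differences. At 20 days it was at 158, 164, 145 and 138 CPM in Smurfs and at 203, 194, 174 and 192 CPM in non-Smurfs, without overlap (log2FC = −0.31, SE 0.065, edgeR adjusted p = 0.0111). That call was lost without the mixed samples (adjusted p = 0.0503) and in the model of 6 groups over all samples (adjusted p = 0.257). The log2FC was −0.27 (SE 0.14, adjusted p = 0.225, and 0.0466 with collection time as a block) at 30 days and −0.02 (SE 0.16, adjusted p = 0.994) at 40 days. Over all ages it was −0.19 (SE 0.091, adjusted p = 0.122), and without the 3 libraries −0.29 (adjusted p = 0.00744, with the limit given for pug). Leaving out 1d-p or 5h-c8 alone made the differences of both Shmt and pug over all ages pass (lowest adjusted p 0.0357 for Shmt and 0.0095 for pug). Within pug, 156 exon bases (4.5%) are shared with CG14683 on the same strand, and within Shmt 110 bases (4.4%) with asRNA:CR44108 on the opposite strand. For Gnmt the corresponding overlap is 75 bases (7.6%) with CG43630 on the opposite strand, and the strand setting of the counting is not given in the sources used here, so reads from these stretches cannot be assigned.

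**Figure D3:**
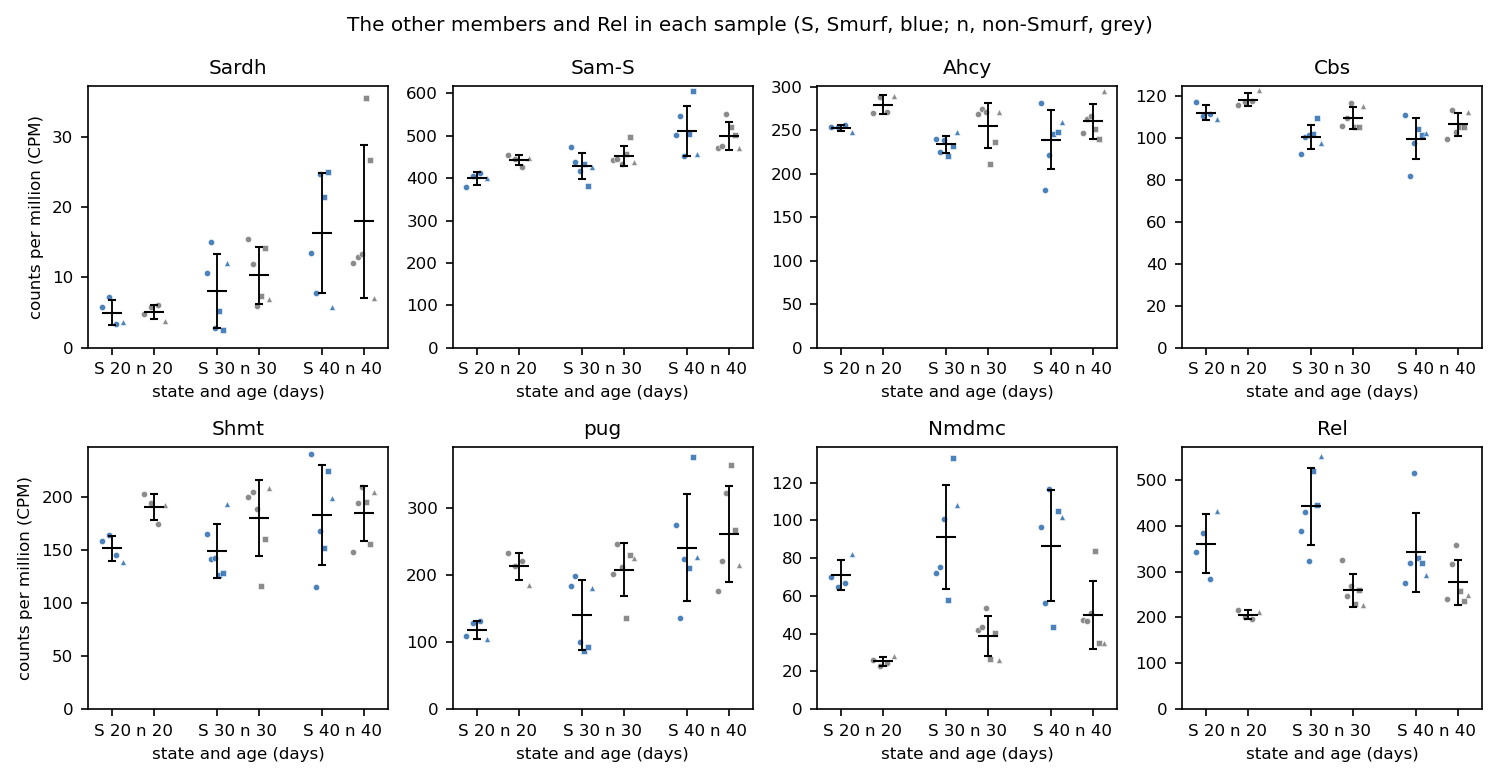
The other 7 members and Rel in CPM (linear axes from 0) in each sample, Smurfs (S, blue) left of non-Smurfs (n, grey) at each age, with circles for 1-day, squares for 5-hour and triangles for mixed samples and the mean ± SD in black. At 20 days the states are apart for every gene shown but Sardh and Cbs, and at 40 days they overlap for all 8. The share of all genes without overlap was not counted, so these separations are not read as particular to the genes shown. By another measure, 33.6% of all genes tested at 20 days had an unadjusted p under 0.05 (edgeR), and 19.1% were called.

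Nmdmc (FBgn0010222, 3R from 9042508 to 9050555, minus strand), the folate dehydrogenase of mitochondria, was the one member tested that was called upwards in Smurfs. At 20 days it had 70.1, 64.7, 66.9 and 82.4 CPM in Smurfs and 26.1, 22.9, 24.3 and 28.1 CPM in non-Smurfs. At 30 days Smurfs ranged from 57.8 to 133 CPM (median 88.0) and non-Smurfs from 26.2 to 53.7 CPM (median 41.3), so that no Smurf sample reached down to a non-Smurf sample of its age. At 40 days Smurfs ranged from 43.4 to 117 CPM (median 99.1) and non-Smurfs from 34.8 to 83.9 CPM (median 47.0), and overlapped through Smurf 5h-c7 and non-Smurf 5h-c5.

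Over all ages Nmdmc was 2.11-fold higher in Smurfs (log2FC = 1.08, SE 0.17, edgeR adjusted p = 4.47e-05), and the mean of non-Smurfs was exceeded by 16 of 16 Smurfs. By age the log2FC was 1.5 (SE 0.093, adjusted p = 0.000113) at 20 days, 1.23 (SE 0.22, adjusted p = 0.00455) at 30 days and 0.80 (SE 0.26, adjusted p = 0.693) at 40 days, where no gene was called. Within each of the 8 collection events it was higher in Smurfs, by between 0.31 and 2.04 in log2 CPM. In non-Smurfs Nmdmc rose 1.97-fold at 40 against 20 days (log2FC = 0.98, SE 0.24, edgeR adjusted p = 0.0471), and in Smurfs the log2FC was 0.30 (SE 0.26, adjusted p = 0.445). The call in non-Smurfs was lost in 11 of 16 fits that left out 1 sample (any of the 20-day samples, the 30-day 1d-g, 1d-h and 5h-c2 or the 40-day 1d-m, 1d-n, 1d-o and 5h-c5), with adjusted p up to 0.148. The age effects differed by −0.69 (SE 0.37, adjusted p = 0.457).

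Rel (FBgn0014018, 3R from 9044183 to 9047977), the NF-kappa-B factor of the immune deficiency pathway, lies within the span of Nmdmc on the same strand and shares 0 exon bases with it. It was at 385 ± 89.1 CPM in Smurfs and 253 ± 45.7 CPM in non-Smurfs (SD, n = 16 each), with a log2FC of 0.83 (SE 0.11, edgeR adjusted p = 0.00233) at 20 days, 0.77 (SE 0.12, adjusted p = 0.0028) at 30 days and 0.31 (SE 0.16, adjusted p = 0.853) at 40 days. Its differences were smaller than those of Nmdmc at each age. Like Nmdmc it was higher in Smurfs within all 8 collection events, by between 0.23 and 1.29 in log2 CPM. Whether unspliced reads of the one gene entered the count of the other was not tested.

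**Figure D4:**
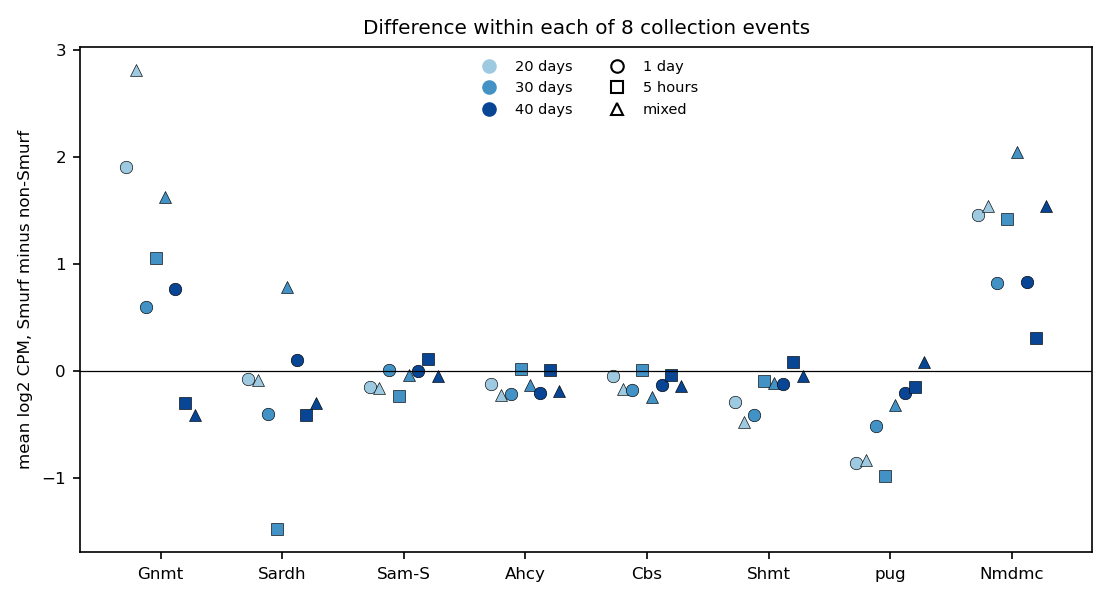
Mean log2 CPM of Smurfs minus that of non-Smurfs for each member within each of the 8 collection events (1 to 3 samples per state), coloured by age, with circles for 1 day, squares for 5 hours and triangles for mixed samples. Nmdmc is above 0 in all 8 events and pug below 0 in 7, and the 2 events in which Gnmt is below 0 are both at 40 days.

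Samples of the 5-hour round were set against those of the 1-day round, at 30 and 40 days with age as a factor (4 against 6 samples per state). No member was called in Smurfs (background 0%, with 703 genes, 6.85%, at an unadjusted p under 0.05, and 98 genes called by DESeq2) or in non-Smurfs (background 0.0883%). Gnmt averaged 73.8 CPM in 5-hour Smurfs and 97.7 CPM in 1-day Smurfs, a log2FC of −0.33 with a 95% interval from −1.04 to 0.39. For Nmdmc the interval in Smurfs ran from −0.63 to 0.64, so differences of either sign within it remain compatible with these samples. The widest difference was that of Sardh in non-Smurfs, at 21.0 CPM in 5-hour and 11.9 CPM in 1-day samples (log2FC = 0.66, SE 0.33, adjusted p = 0.243).

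A list of 38 genes, the 8 members included, covered the methionine cycle with transsulfuration (11), the folate, glycine and serine branch (15) and enzymes that use SAM (12). All passed the filter. Of the 30 that are not members, 2 rose in Smurfs over all ages and 8 fell, a share of 33.3% against the background of 22.7%. The genes that rose were Gclc, the catalytic subunit of the enzyme that starts glutathione synthesis (191 CPM in Smurfs and 165 CPM in non-Smurfs; log2FC = 0.20, SE 0.051, edgeR adjusted p = 0.00501), and aay, the phosphoserine phosphatase that completes serine synthesis (218 and 161 CPM; log2FC = 0.42, SE 0.10, adjusted p = 0.00349). Among those that fell were Bhmt, a homocysteine methyltransferase (28.8 CPM in Smurfs and 40.8 CPM in non-Smurfs; log2FC = −0.52, SE 0.099), SpdS, the spermidine synthase (45.8 and 59.0 CPM; −0.38, SE 0.069), and ppl, a protein of the glycine cleavage system (52.0 and 61.1 CPM; −0.25, SE 0.058). Odc2, the ornithine decarboxylase that feeds spermidine synthesis, was low in both (1.06 and 1.64 CPM; −0.65, SE 0.23). The other genes that fell, CG6287, CG7560, Gclm and Art7, had log2FC between −0.47 and −0.09. The median log2FC of the 30 genes was −0.10, beside −0.01 over all genes. With 1d-p, 5h-c7 and 5h-c8 left out, 2 rose and 15 fell, beside 1321 that rose and 1611 that fell among all 10094 genes tested.

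**Figure D5:**
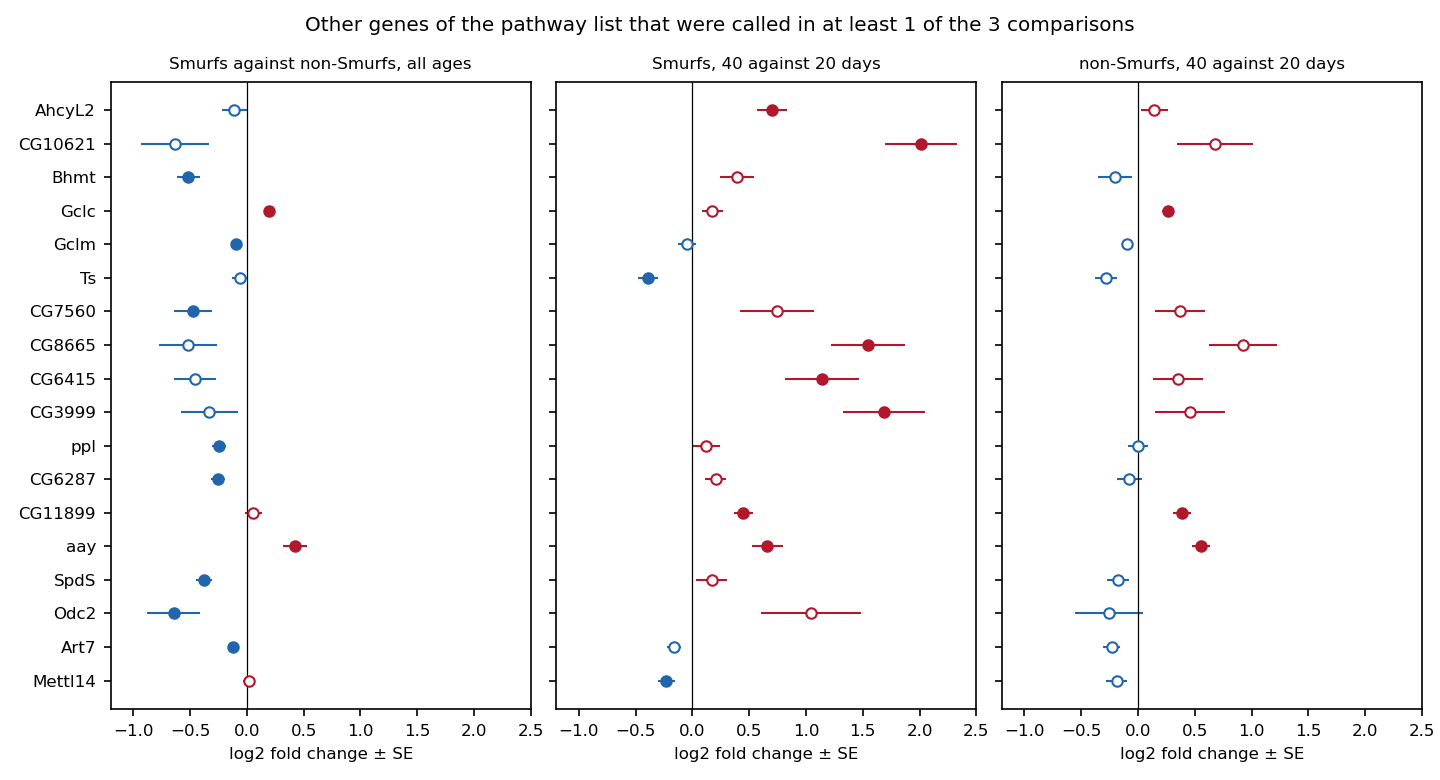
Fitted log2 fold change ± SE of the 18 genes of the pathway list that are not members and were called in at least 1 of the 3 comparisons shown, with filled symbols where the test was passed, red above 0 and blue below. In Smurfs at 40 against 20 days CG10621, CG3999, CG8665 and CG6415 lie between 1.14 and 2.01, and aay is above 0 and called in all 3 panels.

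With age, 7 of these 30 genes rose and 2 fell in Smurfs at 40 against 20 days (30%, background 17.6%, with 10.5% upwards and 7.06% downwards). CG10621 of the methionine list rose most, at 25.2 CPM in 40-day and 6.31 CPM in 20-day Smurfs (log2FC = 2.01, SE 0.32, edgeR adjusted p = 0.0028). In the folate, glycine and serine list CG3999 (log2FC = 1.69, SE 0.36), CG8665 (1.54, SE 0.33), CG6415 (1.14, SE 0.33), aay (0.66, SE 0.14) and CG11899 (0.45, SE 0.086) rose, and Ts, the thymidylate synthase, fell (−0.39, SE 0.087). AhcyL2, a gene related to Ahcy, rose by 0.70 (SE 0.13), and Mettl14, a subunit of the m6A methyltransferase, fell by 0.23 (SE 0.074). At 20 days CG10621, CG3999 and CG6415 were lower in Smurfs than in non-Smurfs, with log2FC of −1.60, −1.03 and −0.89, as pug was. The sums of midgut and fat body markers given above were likewise lower in 20-day Smurfs than in 20-day non-Smurfs. They were higher in 40-day than in 20-day Smurfs, where 1 of 8 fat body and 1 of 5 midgut markers was called higher. The part of these markers in these differences was not tested either. With 1d-p, 5h-c7 and 5h-c8 left out, 4 genes of the list rose and 1 fell in Smurfs. Among all 10375 genes tested there, 279 rose and 96 fell. With 1-day samples alone none of the list was called, and of all 10295 genes tested 37 were. In non-Smurfs 3 of the 30 genes rose at 40 against 20 days (10%, background 1.89%), namely aay (log2FC = 0.55, SE 0.082, edgeR adjusted p = 0.004), CG11899 (0.39, SE 0.079, adjusted p = 0.0216) and Gclc (0.26, SE 0.050, adjusted p = 0.0188). None of the 12 enzymes that use SAM was called there, beside the background of 1.89%. All 12 had a log2FC below 0, with a median of −0.18 beside −0.01 over all genes.

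The genes whose level went most closely with that of Gnmt over the 32 samples were sought among 8467 genes whose log2 CPM averaged 2 or more, by Pearson r of log2 CPM, as a description of samples that share their age and state. The closest was CR10102 (r = 0.90), a pseudogene that neighbours the second, Arc1 (r = 0.89), which encodes a capsid-forming protein related to retrotransposon Gag. Skel (r = 0.85), Cyp4p3, a cytochrome P450 (r = 0.84), and TpnC73F, a troponin C of muscle (r = 0.83), followed. CR10102 and Arc1 are related copies, so reads could have been split between them. Arc1 had 632 ± 162 CPM in 20-day Smurfs (SD, n = 4) and 356 ± 44.8 CPM in 20-day non-Smurfs (SD, n = 4), and 1051 ± 379 and 780 ± 128 CPM at 40 days (SD, n = 6 each). Of the members, Nmdmc ranked 161st (r = 0.67) and Sardh 305th (r = 0.60), Sam-S 1198th (r = 0.40), and Cbs was among the genes that ran opposite to Gnmt (r = −0.64, rank 8314). For pug r was 0.20 (rank 2326). Within a state the order differed. In Smurfs r was 0.66 for Sardh, 0.63 for pug, 0.62 for Sam-S and 0.43 for Nmdmc. In non-Smurfs it was 0.84 for Sardh, 0.75 for Nmdmc, 0.59 for Sam-S and 0.45 for pug.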

How the data were processed

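Libraries were made from poly(A) RNA with a kit that keeps the strand and read from both ends. Hisat2 (alignment, BDGP6.95) and featureCounts (counting per gene) were used by the authors, and no reads were filtered out. The deposited values are whole-number counts per gene and sample, not normalized and not pooled. All 32 columns matched a sample by name, and 0 others were present. The labels give the build as BDGP6. Positions come from the BDGP6.54 annotation, joined by gene identifier, which held 17599 of 17737 genes.

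Tests were run with edgeR 4.0.16 in R 4.3.3: TMM, filterByExpr, glmQLFit and glmQLFTest, two-sided, with Benjamini-Hochberg adjustment over all genes tested and a threshold of 0.05. The SE is the log2FC divided by the square root of F. Intervals of 95% take the log2FC and its SE as normal. Log2 CPM used a prior count of 2. Replicate pairs differed beyond sampling noise (chi-square per degree of freedom 6.79 to 117 over 72 pairs), so each sample counted once. Fits were tested on simulated data. Python 3.11.15 with pandas 2.3.3 and matplotlib 3.10.9 made the tables and figures.

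The members, lists and tests were chosen with earlier results of these data known. The age effect of Gnmt in non-Smurfs, which chose it, and its differences between the states are without a test, also where the plan listed one. Named were all members, the pathway genes called over all ages or at 40 against 20 days in either state (up to 10 each), the 5 genes most like Gnmt, and Rel, which overlaps Nmdmc. The alternatives were RLE size factors, DESeq2 1.42.0, no filter, at least 10 counts in every sample, subsets of samples, a model of 6 groups, age or collection as a term, and leaving out each sample. A planned search of promoters for motifs was not run, since no sequence was used here.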

Additional observations from a re-analysis of the deposited data

Results flagged for a closer look

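Samples far from the others of their group were sought for the 8 genes in 6 groups each, 48 in all, with Dixon's test on log2 CPM, which by chance flags about 1 group in 20. In 30-day non-Smurfs, pug was lowest in 5h-c1 at 135 CPM. The gap of this sample to the next was 0.670 of the range of the group, above the critical value of 0.625 for 6 samples.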

How the results depend on the processing

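The number of members called over all ages, 3 of the 7 tested for Smurfs against non-Smurfs, was 1 with at least 10 counts in every sample, without the mixed samples or with 1-day samples only, 0 with 5-hour samples only and 6 without 1d-p, 5h-c7 and 5h-c8. At 20 days it was 4, and 2 without the mixed samples or in the model of 6 groups. At 30 days it was 1, and 3 with DESeq2. For 40 against 20 days in Smurfs it was 4, and 2 without the mixed samples, 0 with 1-day samples and 1 without the 3 libraries. In non-Smurfs it was 2, and 0 without the mixed samples or in the model of 6 groups and 1 with 1-day samples, which also called 1 member at 30 against 20 days. Leaving out each sample gave 3 to 5 over all ages, 1 to 3 at 30 days, 1 to 4 for age in Smurfs and 0 to 2 in non-Smurfs. RLE size factors and no filter changed none of these counts by over 1.5 times. The causes were not tested.

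No paired analysis by replicate was possible because the samples carry letters that differ between the states, and collection took the place of a replicate block. With the collection event as a block, as with age as a factor, 4 members were called over all ages (background 3035 and 2727 of 10052 genes). With collection time as a block 3 members were called at 30 days (background 1773 of 10090 genes).

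Among all genes the counts moved as well. Over all ages 2286 were called, and 1119 without the mixed samples, 1099 with 1-day and 0 with 5-hour samples and 2932 without 1d-p, 5h-c7 and 5h-c8. At 20 days 1898 were called, and 1093 without the mixed samples and 1160 in the model of 6 groups. At 30 days 1450 were called, and 1864 with DESeq2. For 40 against 20 days in Smurfs 1821 were called, and 1074 without the mixed samples, 37 with 1-day samples and 375 without the 3 libraries. In non-Smurfs 194 were called, and 528 with DESeq2 and 126 without the mixed samples. The interaction called 27 genes, and 136 with DESeq2 and 0 without the mixed samples. With at least 10 counts in every sample, 1334 genes were higher and 715 lower over all ages, against 1148 and 1138.

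Of the values per member, 545 of 600 kept their direction and side of the threshold (for Gnmt without a test, their size within the spread) under these settings. Of the 11 that changed sign only that of Ahcy over all ages had been called, and none was called after the change. Over all ages these were Sardh at 0.037 with 1-day samples, and Ahcy and Shmt at 0.020 and 0.023 with 5-hour samples. At 30 against 20 days in non-Smurfs, 1-day samples gave −0.0066 for Sam-S and 0.053 for Shmt. Without the 3 libraries, Sam-S was at −0.050 at 40 days and Ahcy at −0.11 in the interaction. For 5 hours against 1 day in Smurfs, Nmdmc was at −0.020 with RLE, −0.019 with DESeq2, −0.0012 with no filter and −8.0e-05 with at least 10 counts.

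Values that changed sign when 1 sample was left out were near 0. At 20 days Sardh lay between −0.25 and 0.14. At 40 days Sardh lay between −0.30 and 0.17, Sam-S between −0.026 and 0.068, Shmt between −0.11 and 0.087 and pug between −0.30 and 0.0023. In Smurfs, Ahcy at 40 against 20 days lay between −0.11 and 0.0052 and Shmt at 30 against 20 days between −0.11 and 0.025. In non-Smurfs, Shmt lay between −0.085 and 0.014 at 40 and −0.13 and 0.021 at 30 against 20 days, and pug between −0.087 and 0.070 at 30. In the interaction, Sardh lay between −0.28 and 0.20, Ahcy between −0.027 and 0.088 and Cbs between −0.050 and 0.029. For 5 hours against 1 day, the ranges in Smurfs were −0.52 to 0.13 for Sardh, −0.063 to 0.095 for Sam-S, −0.022 to 0.12 for Ahcy, −0.21 to 0.082 for Shmt, −0.49 to 0.076 for pug and −0.35 to 0.24 for Nmdmc, and in non-Smurfs −0.23 to 0.30 for Gnmt, −0.092 to 0.27 for pug and −0.46 to 0.12 for Nmdmc.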
